A study of Homo sapiens with 12 samples.

Results

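The genes described here are the zinc finger genes of human chromosome 19 that carry a ZNF number and were expressed in HL60 cells, a human acute myeloid leukemia cell line. The members were chosen by 3 criteria applied to the deposited count table: a symbol made of ZNF, a number and at most 1 letter, chr19 as the first chromosome entry, and a mean of at least 20 raw counts over the 12 libraries. This gave 130 members among 252 ZNF-numbered chromosome 19 genes of any count, 562 ZNF-numbered genes on any chromosome and 59251 genes in the table. The criteria use the mean level, so the levels below are a description, and although they use no difference between groups, the set was picked with earlier results of these data known. ZNF738 (23.7 counts) and ZNF565 and ZNF284 (26.5 counts each) lay just inside the minimum, and ZNF837 (18.1 counts) and ZNF571 (16.9 counts) just outside it. Of the 122 genes under the minimum, 77 had no count in any library and 45 had at least 1. All 130 members passed the expression filter, and in 6 of them (ZNF114, ZNF460, ZNF497, ZNF565, ZNF738 and ZNF850) at least 1 group had a mean below 20 counts.

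HL60 cells were left non-treated, or were exposed for 48 h to 1 µM all-trans retinoic acid (ATRA), to 1 µM palbociclib, an inhibitor of the cell cycle kinases CDK4 and CDK6 (CDK4/6i), or to both at these doses (CDK4/6i+ATRA). Each group had 3 libraries that the labels call biological replicates of this single line, 12 in all. The question put to these data is how each drug, and the pair of drugs, changed the RNA levels of the chromosome 19 zinc finger genes.

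Most zinc finger proteins of chromosome 19 combine an array of C2H2 fingers, which read DNA sequence, with an N-terminal KRAB domain. The KRAB domain binds the corepressor TRIM28 (KAP1), which brings the histone methyltransferase SETDB1, HP1 proteins and the NuRD complex to the bound site, commonly in endogenous retroviruses and other transposable elements. The genes arose by repeated local duplication and therefore lie in long runs on the chromosome. ZNF proteins without KRAB do not share this route of repression as a class.

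A KRAB A box was found in 103 of the 130 predicted proteins by a sequence profile, and not in 27. The number of C2H2 fingers ranged from 1 in ZNF428 to 29 in ZNF850, with a median of 11 over the members, 12 with and 9 without a KRAB A box. Only 1 coding transcript per gene was read, so a KRAB A box carried by another isoform would be missed. The E-value limit of 1e-05 also left out weaker matches, such as ZNF473 at 9.5e-04, which is counted among the 27.

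Total counts ran from 12230923 to 18679544 per library, and those with CDK4/6i+ATRA held 12230923 to 14415276. At 12230923 counts a floor of 3 counts corresponds to 0.245 CPM (counts scaled to a common library total) before TMM normalization, and such floors cover counting error only. The CDK4/6i+ATRA libraries also had TMM factors of 0.840 to 0.893, against 1.03 to 1.07 in the other groups, so that values relative to all counts and values after TMM differ for this group. Levels below are CPM after TMM. The myeloid marker MPO was at 6335 to 6666 CPM in non-treated cells and fell to 24.5 to 33.9 CPM with CDK4/6i+ATRA, and CTSG fell as well (11.2 to 15.7 and 0.458 to 0.744 CPM, adjusted p = 5.5e-22). Other myeloid markers rose, SPI1 (PU.1) from a range of 298 to 304 CPM to one of 838 to 868 CPM (adjusted p = 1.2e-36) and CEBPE from 165 to 175 CPM to 281 to 289 CPM (adjusted p = 2.8e-23), while CD33 stood at 91.9 to 96.7 and 93.8 to 103 CPM. In such bulk samples fewer cells of a kind and less RNA per cell cannot be told apart. The B cell gene CD79A (12.3 to 16.3 CPM with CDK4/6i+ATRA, 14.7 to 18.3 CPM in non-treated cells) and the T cell gene CD3E (0.55 to 0.981 and 1.97 to 2.16 CPM) had reads, but CD3D and CD2 had 1 and 8 counts over all libraries, and MS4A1 and HBB had 0. ELANE, PRTN3 and AZU1 are listed at 0 in every library, and each is also placed on an alternate or patch contig of the genome, as are 5154 genes of the table, of which 3559 are at 0.

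Upstream sequences of the members were searched for 8 short motifs in the 250 bases before the annotated start. RefSeq (GRCh38.p14) held such a sequence for 116 of the 130 members. The motif CCGGAAGT, a sequence that ETS family factors such as GABPA are known to bind, occurred on either strand in 25 of 116 members (21.6%), compared with 7.61% of the tested genes with a promoter entry and 3.64% of all 27305 promoters. The share was 8.62% in members for TTTGAA (8.76% of tested genes), 3.45% for TTTGGCGC (0.940%), 2.59% for TTTCGCGC (0.817%), 4.31% for TGACGTCA (2.88%) and 2.59% for CGCATGCG (3.57%). The direct repeat of AGGTCA with 5 or with 2 bases between was found in 0 of 116 members and 0 of 9788 tested genes. Such a match is a match of letters, not a measured binding site.

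The last 120 bases before the start are shown for 5 members with CCGGAAGT or its reverse complement in capitals, of which ZNF226, ZNF585A, ZNF671 and ZNF776 rose at least 2-fold with CDK4/6i+ATRA and ZNF274 is the most abundant KRAB member per length. ZNF850 and ZNF530, shown for contrast, are the most strongly reduced members whose promoter was listed, and none of the searched motifs stands in their windows. All are written 5′ to 3′ on the gene's strand with GRCh38.p14 coordinates.
ZNF226 (chr19:44164980-44165099, plus strand): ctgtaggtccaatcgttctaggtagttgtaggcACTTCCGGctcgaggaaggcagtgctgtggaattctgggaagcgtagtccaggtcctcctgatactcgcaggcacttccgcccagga
ZNF585A (chr19:37172696-37172815, minus strand): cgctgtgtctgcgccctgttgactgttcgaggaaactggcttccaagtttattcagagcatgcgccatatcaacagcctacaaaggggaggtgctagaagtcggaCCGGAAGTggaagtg
ZNF671 (chr19:57727625-57727744, minus strand): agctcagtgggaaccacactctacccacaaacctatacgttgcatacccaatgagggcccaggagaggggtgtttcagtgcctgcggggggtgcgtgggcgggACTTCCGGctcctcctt
ZNF776 (chr19:57746695-57746814, plus strand): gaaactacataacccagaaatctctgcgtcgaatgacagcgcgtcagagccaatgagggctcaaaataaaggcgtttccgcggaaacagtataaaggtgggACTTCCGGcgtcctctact
ZNF274 (chr19:58182941-58183060, plus strand): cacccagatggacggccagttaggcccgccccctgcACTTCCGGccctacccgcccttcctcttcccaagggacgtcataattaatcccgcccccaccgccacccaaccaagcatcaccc
ZNF850 (chr19:36772808-36772927, minus strand): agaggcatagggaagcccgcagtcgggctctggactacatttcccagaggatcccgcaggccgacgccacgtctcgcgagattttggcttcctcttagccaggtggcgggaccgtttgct
ZNF530 (chr19:57599765-57599884, plus strand): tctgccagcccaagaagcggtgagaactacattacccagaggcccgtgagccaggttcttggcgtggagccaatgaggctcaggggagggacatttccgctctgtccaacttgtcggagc
The motif begins 87 bases before the start in ZNF226, 15 in ZNF585A, 17 in ZNF671, 19 in ZNF776 and 84 in ZNF274.

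The members were expressed at low levels, with a median over the genes of 145 for the mean raw count per library. Divided by exon length, the mean level over the 12 libraries ran from 0.157 to 35.2 CPM per kb with a median of 1.72, against a median of 4.61 CPM per kb for all 13318 tested genes. The median was 1.47 CPM per kb for the 103 members with a KRAB A box and 4.42 for the 27 without. The highest levels per length were those of ZNF146 (35.2 CPM per kb), ZNF787 (24.7), ZNF581 (16.7), ZNF428 (16.5) and ZNF274 (11.9), and ZNF274 alone among these 5 had a KRAB A box.

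Summed over all members, the level was 1836 to 1854 CPM in non-treated cells, 1677 to 1721 with ATRA, 1909 to 1965 with CDK4/6i and 1759 to 1816 with CDK4/6i+ATRA. ZNF146 by itself made up 9.68% to 9.99% of this sum in non-treated cells and 4.19% to 4.64% with CDK4/6i+ATRA. Without ZNF146 the sum was 1658 to 1669 CPM in non-treated cells and 1678 to 1740 CPM with CDK4/6i+ATRA. The summed level of the members with a KRAB A box was 1121 to 1140 CPM in non-treated cells and 1191 to 1249 CPM with CDK4/6i+ATRA, and that of the members without it 696 to 723 and 564 to 568 CPM. The first of these differences turned with the scaling. In CPM scaled by library totals without TMM, the KRAB sum was 1149 to 1196 in non-treated cells and 1001 to 1115 with CDK4/6i+ATRA, the sum without ZNF146 was 1701 to 1740 and 1410 to 1554, and the sum without a KRAB A box was 731 to 741 and 478 to 506.

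With CDK4/6i+ATRA, 52 of the 130 members rose and 43 fell against non-treated cells at an edgeR adjusted p under 0.05, with 35 not called. Over all 13318 tested genes 41% rose and 40.7% fell, so the share of members that rose was close to the background and the share that fell (33.1%) was lower. A change of at least 2-fold was called higher in 9 and lower in 15 of the 130 (18.5% together), compared with 22.3% and 23.3% of all tested genes (45.5% together). The middle 50% of the members' log2 fold changes ran from -0.47 to 0.52, against -0.93 to 0.87 for all tested genes, and the medians were 0.08 and 0.02. The 189 ZNF-numbered genes on other chromosomes had 68 higher, 75 lower and a median of -0.05, and a change of at least 2-fold was called higher in 23 and lower in 24 of them (24.9% together), and 638 other chromosome 19 genes had 287 higher, 281 lower and a median of 0.02. When libraries were scaled by their totals alone the split of members was 27 higher and 58 lower. Their median was then -0.19 and that of all tested genes -0.25. The distance between these medians was 0.06 under either scaling. Library scaling enters the log2 fold changes of members and other genes alike, so this distance was bound to stay and is no check on the result. The 27 and 58 members are 20.8% and 44.6% of the 130, against 32.9% and 48.3% of all tested genes. With library totals the share that rose thus lay below the background. At 2-fold or more that scaling called 4 members higher and 18 lower, against 18.0% and 29.0% of all tested genes.

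**Figure D1:**
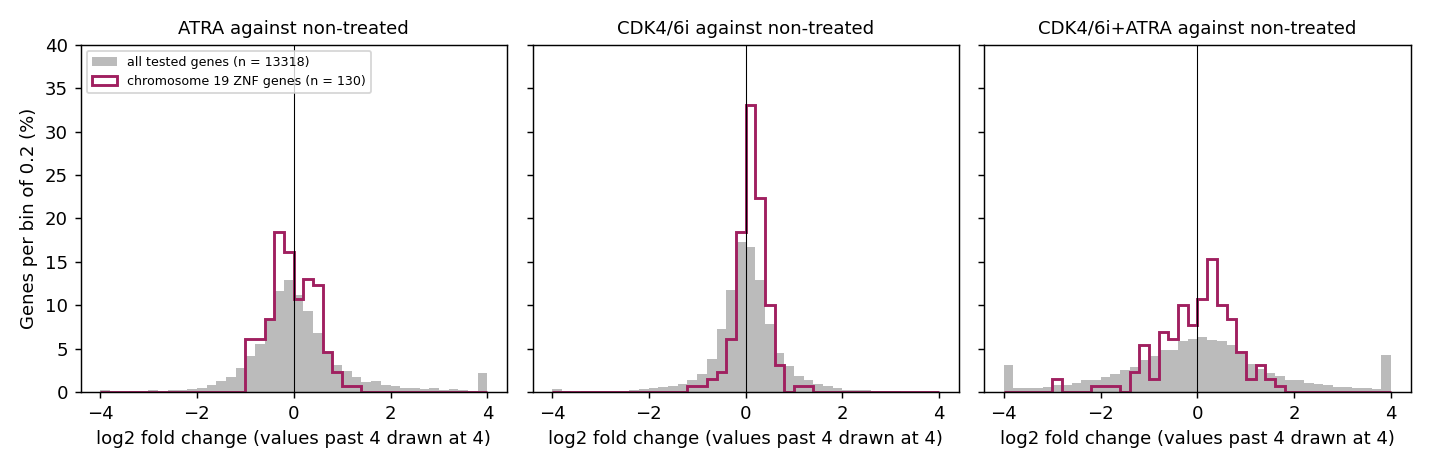
Histograms of log2 fold change (x axis) against non-treated cells, as the percentage of genes per bin of 0.2 (y axis), for all 13318 tested genes (grey) and the 130 chromosome 19 ZNF genes (outline). In each panel the outline is narrower than the grey distribution, and with CDK4/6i+ATRA 9 members rose and 15 fell at least 2-fold.

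The largest rise under CDK4/6i+ATRA was that of ZNF211 (chr19:57633168-57644041, plus strand, hg38), a KRAB zinc finger gene. Its level was 4.57, 5.2 and 5.8 CPM in the 3 non-treated libraries, 10.1, 10.1 and 10.7 with ATRA, 7.88, 8.19 and 8.25 with CDK4/6i and 17.7, 16.7 and 15 with CDK4/6i+ATRA. The 4 groups did not overlap, and each drug alone gave an intermediate level. The log2 fold change was 1.66 ± 0.12 (SE, adjusted p = 5.7e-17), with 0.98 ± 0.13 for ATRA and 0.64 ± 0.13 for CDK4/6i.

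ZNF226 (chr19:44165100-44199490, plus strand), a KRAB gene with 17 fingers, stood at 10.1, 11.2 and 12.8 CPM in non-treated cells and 33.5, 32.1 and 30.7 CPM with CDK4/6i+ATRA. ATRA gave 19.5, 22.2 and 17.2 CPM and CDK4/6i 14.4, 15.6 and 16.9 CPM. All treated libraries lay above all non-treated libraries, and the log2 fold change for both drugs was 1.49 ± 0.10 (SE, adjusted p = 2.5e-19). ZNF225, a paralogue in the same run of genes, rose from 4.87, 4.58 and 5.07 to 12.1, 12.4 and 10.4 CPM (log2 fold change 1.26 ± 0.14 SE, adjusted p = 2.6e-11).

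ZNF776 (chr19:57746815-57758148, plus strand) had 18.4, 22.2 and 19.4 CPM in non-treated cells, 34.8, 34.3 and 35.4 with ATRA, 22, 24.1 and 22.3 with CDK4/6i and 46.8, 48.1 and 44.8 with CDK4/6i+ATRA. The ATRA and CDK4/6i+ATRA libraries were high, and the CDK4/6i libraries overlapped those of non-treated cells. The log2 fold change was 1.22 ± 0.07 (SE, adjusted p = 1.1e-20) with both drugs. ZNF671, which is often silenced by promoter methylation in carcinomas, had 4.69, 6.4 and 5.58 CPM in non-treated cells, 10, 10.1 and 10.5 with ATRA and 12.6, 13.1 and 14.3 with CDK4/6i+ATRA, with a log2 fold change of 1.27 ± 0.13 (SE, adjusted p = 5.7e-12). Its CDK4/6i libraries, at 5.96, 4.71 and 6.2 CPM, overlapped the non-treated ones.

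ZNF536, known as a repressor of neuronal differentiation, was expressed at 2.76, 1.69 and 1.97 CPM in non-treated cells and 6.97, 5.17 and 5.04 CPM with CDK4/6i+ATRA. ATRA alone gave 4.13, 6.12 and 6.24 CPM, so the ranges of both ATRA-containing groups overlapped. The log2 fold change was 1.41 ± 0.22 (SE, adjusted p = 1.8e-07). ZNF792 rose from 1.86, 2.19 and 1.97 to 6.23, 5.26 and 4.46 CPM (log2 fold change 1.40 ± 0.21 SE, adjusted p = 5.6e-08).

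ZNF333 was read at 5.77, 5.52 and 4.22 CPM in non-treated cells and 12.6, 10.3 and 12.4 CPM with CDK4/6i+ATRA, a log2 fold change of 1.19 ± 0.15 (SE, adjusted p = 5.7e-10). It shares 1351 exon bases with ADGRE2 on the opposite strand, which stood at 9.03 to 11.1 CPM in non-treated cells and 432 to 450 CPM with both drugs. The library kit was directional, but strand use in counting is not given in the sources used here, so reads of this pair cannot be told apart.

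The deepest fall by size was in ZNF114, which had 2.58, 3.2 and 3.15 CPM in non-treated cells, 2.83, 2.92 and 2.49 with ATRA, 1.71, 0.978 and 1.58 with CDK4/6i and 0.642, 0.178 and 0.331 with CDK4/6i+ATRA. These are 43 to 56 raw counts per non-treated library and 2 to 7 with CDK4/6i+ATRA, so the log2 fold change of -2.94 ± 0.38 (SE, adjusted p = 1.3e-09) rests on few reads.

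ZNF850 (chr19:36743480-36772807, minus strand), with 29 fingers the longest array among the members, fell 7.37-fold. Its level was 9.5, 8.53 and 10.5 CPM in non-treated cells, 7.64, 9.1 and 8.01 with ATRA, 6.17, 7.33 and 7.72 with CDK4/6i and 1.65, 1.43 and 0.826 with CDK4/6i+ATRA. The CDK4/6i+ATRA libraries held 10 to 18 counts each and lay far below every other library. The log2 fold change was -2.88 ± 0.21 (SE, adjusted p = 1.1e-17) with both drugs and -0.21 ± 0.13 (SE, adjusted p = 0.16) with ATRA alone.

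ZNF530 (chr19:57599885-57612722, plus strand) had 8.53, 10 and 9.12 CPM in non-treated cells, 8.69, 8.86 and 8.01 with ATRA, 4.62, 5.87 and 5.15 with CDK4/6i and 2.47, 1.43 and 2.23 with CDK4/6i+ATRA. The ATRA libraries overlapped those of non-treated cells, whereas the CDK4/6i libraries lay between these and the CDK4/6i+ATRA libraries. The log2 fold change was -2.17 ± 0.19 (SE, adjusted p = 5.6e-15).

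ZNF749 fell from 7.45, 9.22 and 8.45 to 2.11, 3.48 and 1.98 CPM (log2 fold change -1.73 ± 0.19 SE, adjusted p = 2.5e-11), and ZNF550 from 9.62, 11.9 and 12 to 4.67, 5.17 and 3.14 CPM (log2 fold change -1.38 ± 0.15 SE, adjusted p = 2.6e-11). For both genes the ATRA libraries were also low, at 3.39 to 5.25 and 5.61 to 6.76 CPM. ZNF296, a gene known from pluripotent stem cells, fell from 12.9, 10.3 and 11.6 to 4.12, 4.72 and 4.79 CPM (log2 fold change -1.35 ± 0.15 SE, adjusted p = 2.5e-11), and 110 of its exon bases are shared with GEMIN7 on the opposite strand, which stood at 9.97 to 12.1 and 6.42 to 8.91 CPM.

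ZNF146 (chr19:36214723-36238768, plus strand), also called OZF, encodes a protein made almost entirely of zinc fingers. It was the most abundant member per length and fell from 184, 185 and 178 CPM to 76.1, 79.7 and 81.6 CPM, a log2 fold change of -1.20 ± 0.04 (SE, adjusted p = 1.3e-29). ZNF565 overlaps it by 133 exon bases on the opposite strand and had 318 counts in all, against 25947 for ZNF146. ZNF565 fell from 3.19, 2.13 and 2.48 to 1.01, 0.802 and 0.413 CPM (log2 fold change -1.82 ± 0.35 SE, adjusted p = 6.9e-06), and how far reads of ZNF146 enter this value was not tested. Of all members, 36 share exon bases with another gene, and in 11 of these the partner holds at least 10% of the member's counts.

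**Figure D2:**
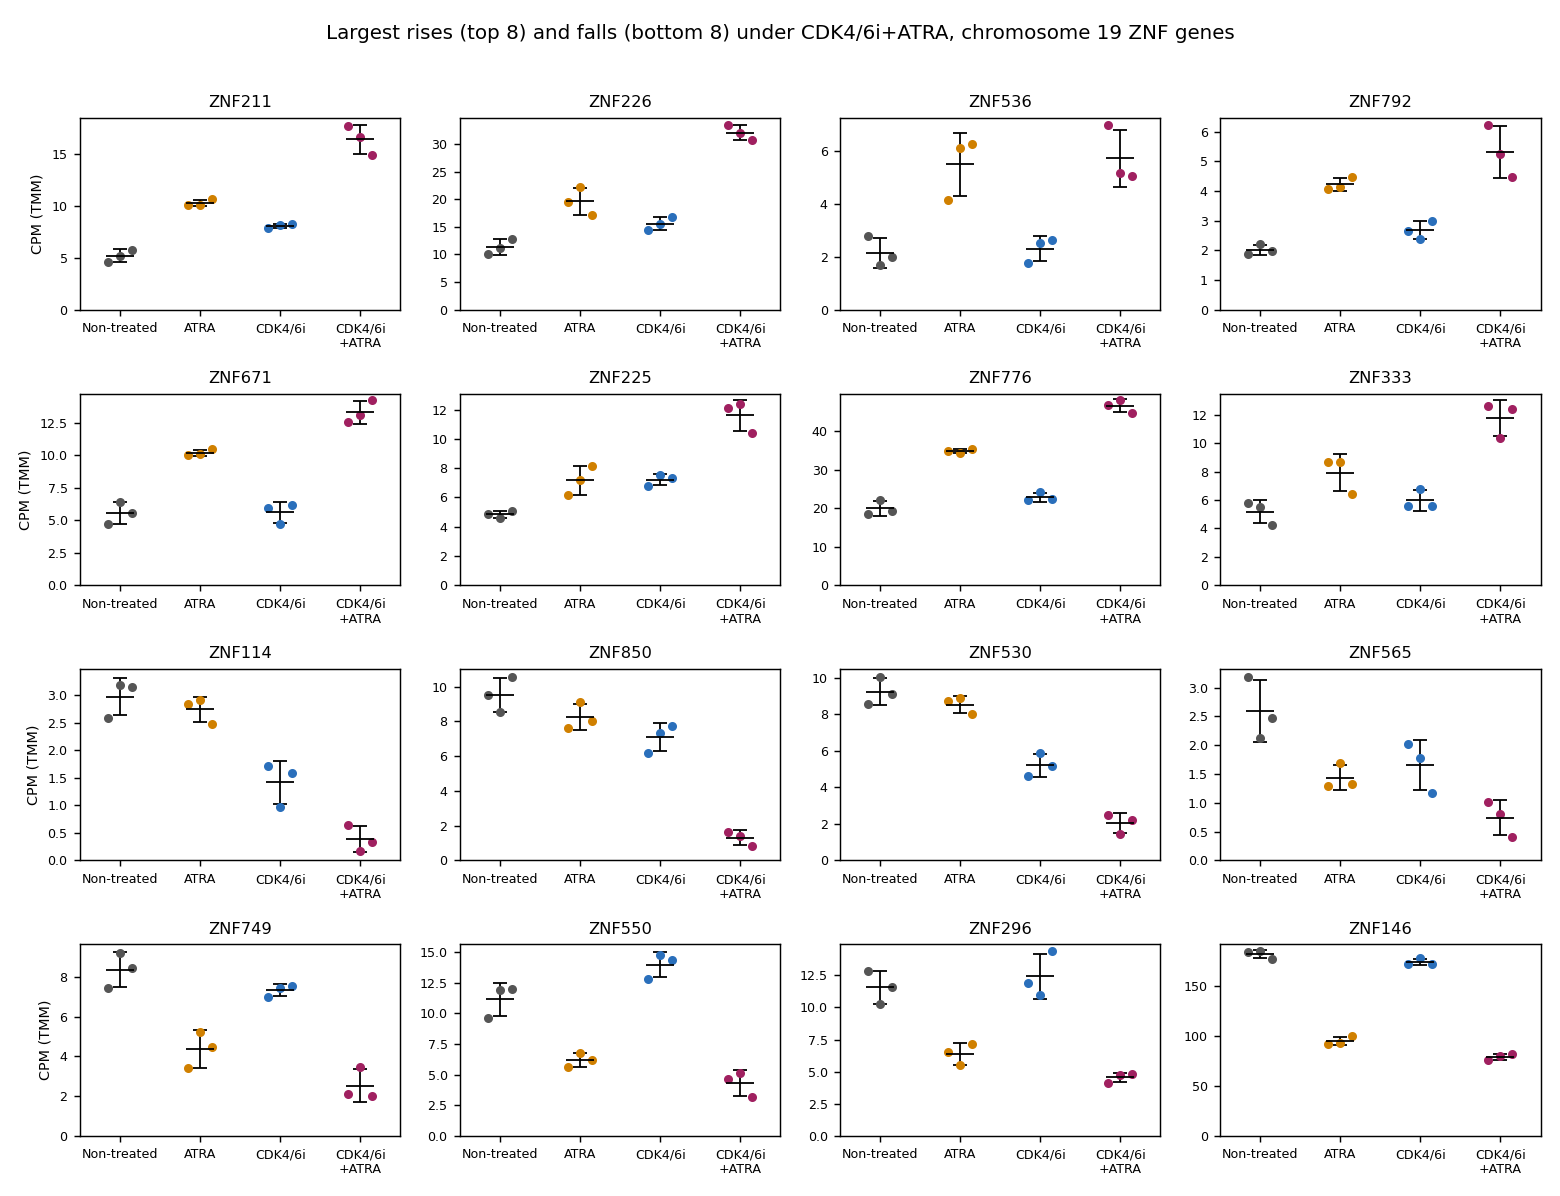
CPM after TMM (y axis, from 0) in each of the 12 libraries for the 8 largest rises and 8 largest falls among chromosome 19 ZNF genes under CDK4/6i+ATRA, with points for libraries and bars for the mean and SD (n = 3). Genes were chosen for libraries that do not overlap between CDK4/6i+ATRA and non-treated cells, so this gap is set by the choice, whereas the ATRA and CDK4/6i points were free to fall anywhere, for example at 10.1 to 10.7 and 7.88 to 8.25 CPM in ZNF211.

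With ATRA alone 32 members rose and 43 fell, against 32.1% and 35.5% of all tested genes. ZNF536 and ZNF792 rose at least 2-fold, and changes of that size in either direction were called in 1.54% of the members, 9.52% of the ZNF-numbered genes on other chromosomes and 21.7% of all tested genes. The 4 largest rises were ZNF536 (log2 fold change 1.36 ± 0.21 SE, adjusted p = 1.8e-07), ZNF792 (log2 fold change 1.07 ± 0.21 SE, adjusted p = 9.5e-06), ZNF211 (log2 fold change 0.98 ± 0.13 SE, adjusted p = 2.0e-09) and ZNF671 (log2 fold change 0.88 ± 0.13 SE, adjusted p = 8.2e-08). The 4 largest falls were ZNF574, ZNF146, ZNF749 and ZNF296.

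ZNF574 had 39.3, 36.9 and 33.8 CPM in non-treated cells and 18.6, 18.1 and 18.7 with ATRA, a log2 fold change of -0.99 ± 0.08 (SE, adjusted p = 1.8e-16). With CDK4/6i+ATRA it stood at 14.9, 16.2 and 16.6 CPM, below all ATRA libraries. ZNF146 had 91.9, 92.9 and 99.6 CPM with ATRA (log2 fold change -0.94 ± 0.04 SE, adjusted p = 5.3e-26), and the CDK4/6i libraries, at 172, 178 and 173 CPM, were near those of non-treated cells. The log2 fold changes of ZNF749 and ZNF296 with ATRA were -0.93 ± 0.16 (SE, adjusted p = 1.2e-06) and -0.86 ± 0.13 (SE, adjusted p = 8.5e-08).

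Members with and without a KRAB A box were set side by side for ATRA. Among the 27 without it 3 rose and 13 fell, with a median log2 fold change of -0.28. Among the 103 with it 29 rose and 30 fell, with a median of 0.00. The shares of all tested genes were 32.1% and 35.5%. The difference between these lists was not tested. The 13 that fell included ZNF146 and ZNF574 above and ZNF581 and ZNF428 among the most abundant members, and also ZNF473 with its weaker profile match. Scaling by library totals left the 3 and 13 calls in number, with a median of -0.24, and gave 33 rises and 26 falls in the KRAB list, against 33.9% and 33.1% of all tested genes.

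**Figure D3:**
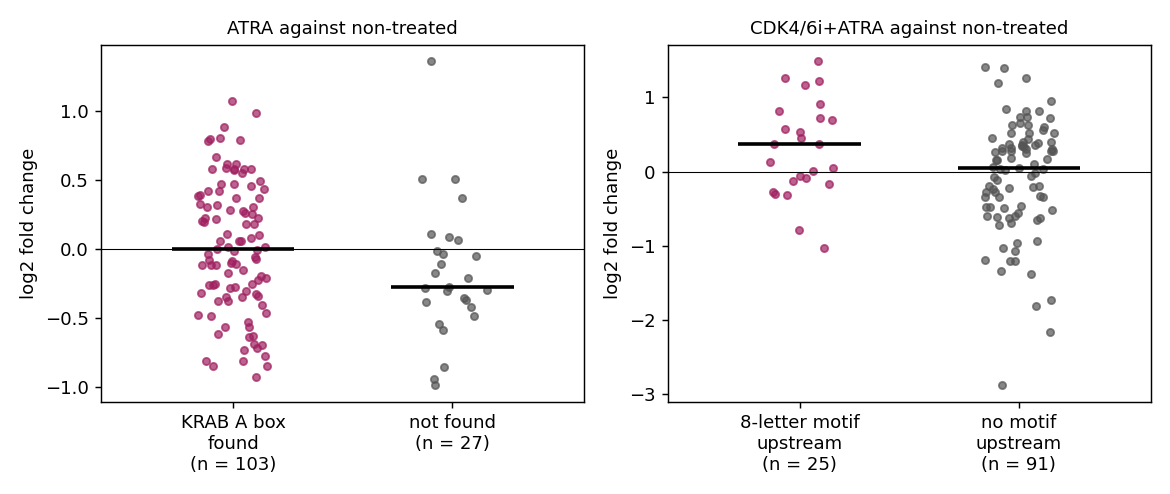
Log2 fold change (y axis) of each chromosome 19 ZNF gene, with the median as a bar. Left, ATRA against non-treated cells for the 103 genes with and the 27 without a KRAB A box (medians 0.00 and -0.28). Right, CDK4/6i+ATRA against non-treated cells for the 25 genes with and the 91 without the ETS-type 8-letter motif in the 250 bases before the start (medians 0.37 and 0.05).

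The members with CCGGAAGT upstream were also described under CDK4/6i+ATRA. Of the 25 with the motif 12 rose and 5 fell (median 0.37), and of the 91 with a listed promoter and no motif 33 rose and 33 fell (median 0.05), against 41% and 40.7% of all tested genes. Of the members that rose at least 2-fold 8 had a promoter entry and 4 of these held the motif. Of those that fell at least 2-fold 12 had an entry and 1 of these, ZNF324B, held it. Over all tested genes the median was -0.03 with the motif and -0.02 without. With scaling by library totals the medians of the member lists were 0.10 and -0.22, with 10 rises and 10 falls among the 25, against 32.9% and 48.3% of all tested genes. The 2-fold calls among the 25, 4 higher and 1 lower after TMM, were then 1 higher and 2 lower. The difference was not tested.

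CDK4/6i alone gave 34 rises and 12 falls among the members, with a median log2 fold change of 0.10. Over all tested genes 28.3% rose and 27.9% fell, with a median of 0.02. The share of members that rose (26.2%) was close to the background and the share that fell (9.23%) was lower, again without matching for level. Among ZNF-numbered genes on other chromosomes 54 rose and 43 fell. Scaling by library totals moved the members' median to 0.11.

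ZNF446 (chr19:58476352-58489533, plus strand) gave the largest rise with CDK4/6i, from 3.37, 3.76 and 4.0 to 9.59, 9.11 and 9.95 CPM, a log2 fold change of 1.36 ± 0.16 (SE, adjusted p = 2.6e-10). The CDK4/6i libraries were the highest of all, and ATRA libraries were at 4.19, 5.07 and 5.08 CPM. A region of 91 exon bases is shared with an opposite-strand locus of 137 counts, beside 1092 counts for ZNF446. ZNF627 rose from 6.79, 7.27 and 6.93 to 13.1, 15.2 and 14.6 CPM (log2 fold change 1.03 ± 0.12 SE, adjusted p = 1.3e-10) and ZNF429 from 4.57, 6.21 and 6.31 to 8.97, 9.29 and 9.19 CPM (log2 fold change 0.68 ± 0.14 SE, adjusted p = 3.1e-05). ZNF222 rose from 2.64, 3.45 and 3.04 to 3.99, 5.87 and 4.86 CPM (log2 fold change 0.68 ± 0.19 SE, adjusted p = 0.00208).

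ZNF114 and ZNF530 also fell with CDK4/6i alone, with the values per library given above and log2 fold changes of -1.05 ± 0.26 (SE, adjusted p = 5.7e-04) and -0.83 ± 0.14 (SE, adjusted p = 1.6e-06). ZNF565 followed, at 2.02, 1.77 and 1.17 CPM (log2 fold change -0.64 ± 0.27 SE, adjusted p = 0.0411), a call that was lost in DESeq2 (adjusted p = 0.0794). It was also lost without non-treated replicate 1 or 3 (adjusted p = 0.211 and 0.0614) and without CDK4/6i replicate 2 or 3 (adjusted p = 0.0621 and 0.213). ZNF324B fell from 10.2, 12 and 10.4 to 6.12, 7.82 and 7.37 CPM (log2 fold change -0.62 ± 0.13 SE, adjusted p = 6.7e-05), and ATRA gave a similar level of 6.9, 6.12 and 6.57 CPM.

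Adding ATRA to CDK4/6i raised 43 members and lowered 48 against CDK4/6i alone, compared with 39.1% and 39.5% of all tested genes. Adding CDK4/6i to ATRA raised 42 and lowered 28 against ATRA alone, compared with 36.9% and 32.8%. Both comparisons share the CDK4/6i+ATRA libraries, and the split moved with their scaling. With library totals alone the counts were 14 higher and 68 lower against CDK4/6i, and 11 higher and 53 lower against ATRA, beside 28.6% and 49.2%, and 22.2% and 48.1%, of all tested genes. Without a filter on low counts 27 were higher against ATRA.

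The interaction asks whether the log2 effect of both drugs differs from the sum of the effects of each. It was past the threshold in 39 members, 13 above and 26 below additivity, compared with 24.5% and 27% of all tested genes. These are 10% and 20% of the members, both below the background shares, again without matching for level. Scaling by library totals moved the median of all tested genes to -0.34 and left 1 member above and 53 below additivity, against 10.3% and 45.5% of all tested genes. The 13 above became 4 without a filter on low counts, 7 in the DESeq2 test and 8 without non-treated replicate 2.

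The lowest interactions were those of ZNF850 (-2.24 ± 0.26 SE, adjusted p = 4.0e-10), ZNF114 (-1.78 ± 0.50 SE, adjusted p = 0.00233), ZNF446 (-1.45 ± 0.24 SE, adjusted p = 1.6e-06) and ZNF530 (-1.22 ± 0.24 SE, adjusted p = 3.3e-05). For ZNF850 and ZNF530 ATRA by itself was not past the threshold, while CDK4/6i+ATRA against CDK4/6i gave -2.45 ± 0.22 (SE, adjusted p = 2.2e-14) and -1.34 ± 0.20 (SE, adjusted p = 7.4e-08). ZNF446 rose with CDK4/6i, but with CDK4/6i+ATRA it stood at 6.23, 3.74 and 3.64 CPM, and its change against non-treated cells was 0.28 ± 0.19 (SE, adjusted p = 0.176).

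The highest interactions were those of ZNF584 (1.15 ± 0.18 SE, adjusted p = 3.4e-07), ZNF784 (0.67 ± 0.23 SE, adjusted p = 0.0116), ZNF576 (0.61 ± 0.13 SE, adjusted p = 1.3e-04) and ZNF585A (0.54 ± 0.20 SE, adjusted p = 0.0188). ZNF584 was at 9.68, 9.78 and 8.9 CPM in non-treated cells, 5.92, 6.94 and 5.36 with ATRA, 8.45, 7.39 and 9.01 with CDK4/6i and 11.9, 11.3 and 12.2 with CDK4/6i+ATRA. It fell with ATRA alone (log2 fold change -0.64 ± 0.13 SE, adjusted p = 2.2e-05), and its CDK4/6i+ATRA libraries were the highest after TMM. The rise with both drugs over non-treated cells was not past the threshold with library totals (log2 fold change 0.0589, adjusted p = 0.662), without a filter (0.216, adjusted p = 0.178), or on leaving out the third non-treated library (adjusted p = 0.0677) or the third CDK4/6i+ATRA library (adjusted p = 0.052). ZNF585A, with 21 fingers, had 5.05, 6.02 and 5.35 CPM in non-treated cells and 11.9, 11.9 and 13 CPM with CDK4/6i+ATRA, whereas CDK4/6i alone gave 5.34, 5.13 and 6.79 CPM. The interactions of ZNF784, ZNF576 and ZNF585A were not past the threshold when libraries were scaled by their totals (adjusted p = 0.193, 0.0664 and 0.351). That of ZNF585A was also lost without a filter (adjusted p = 0.0844) and without non-treated replicate 2, ATRA replicate 1 or CDK4/6i replicate 2 (adjusted p = 0.0682, 0.0655 and 0.0602).

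**Figure D4:**
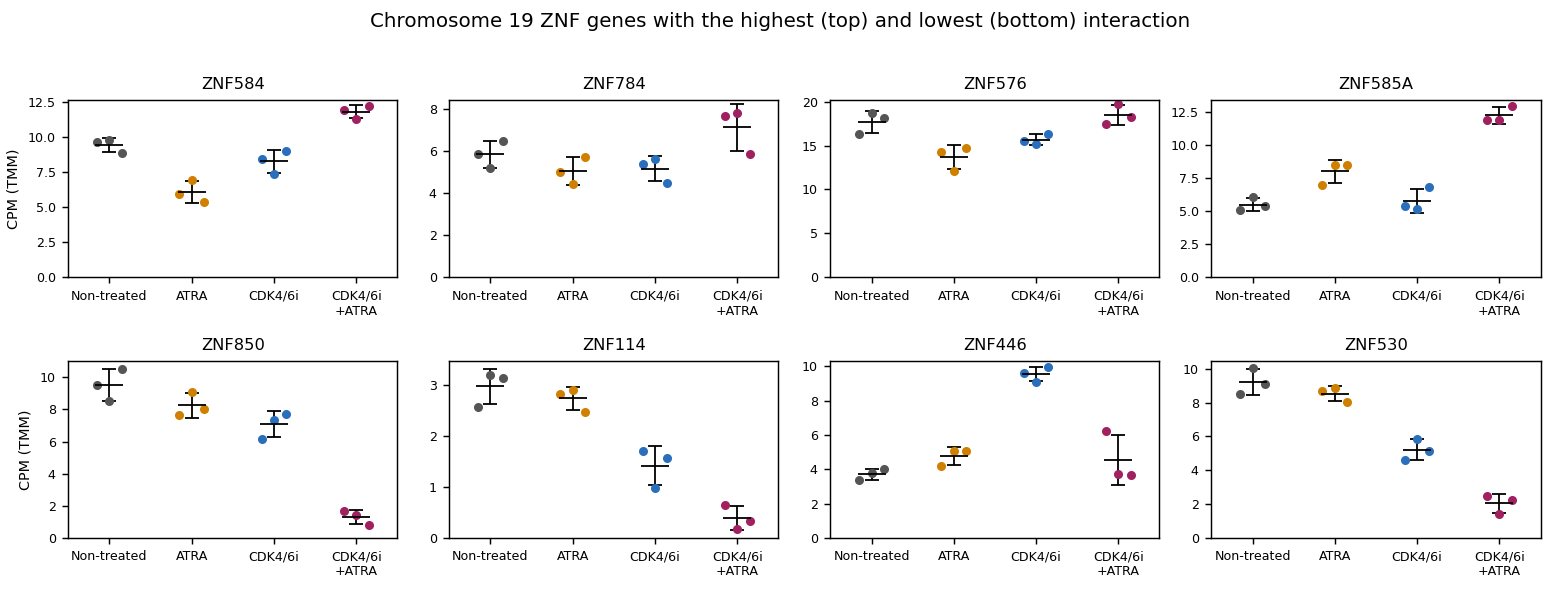
CPM after TMM (y axis, from 0) in each of the 12 libraries for the 4 highest (top) and 4 lowest (bottom) interactions among the chromosome 19 ZNF genes, with mean and SD (n = 3). On this scale ZNF584 is lowest with ATRA and highest with CDK4/6i+ATRA, at 11.3 to 12.2 CPM, and ZNF446 is highest with CDK4/6i, at 9.11 to 9.95 CPM.

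Several members have known roles. ZNF274 binds the 3′ ends of other zinc finger genes and recruits SETDB1 there, and stood at 37.3, 38.1 and 34.1 CPM in non-treated cells and 53.7, 54.1 and 54.7 CPM with CDK4/6i+ATRA, a log2 fold change of 0.57 ± 0.06 (SE, adjusted p = 6.0e-12). Its ATRA libraries (40.6, 42.9 and 44 CPM) and CDK4/6i libraries (41.1, 40.8 and 39.2 CPM) lay between them. ZNF473 (ZFP100), a factor of histone pre-mRNA 3′ end processing, had 22.2, 18.6 and 17.2 CPM in non-treated cells, 16.3, 14.7 and 15.9 with ATRA, 19.2, 21.4 and 19.3 with CDK4/6i and 7.88, 9.54 and 10.1 with CDK4/6i+ATRA. It fell with both drugs (log2 fold change -1.07 ± 0.11 SE, adjusted p = 3.9e-12) and with ATRA alone (log2 fold change -0.30 ± 0.09 SE, adjusted p = 0.00427), and did not pass the test with CDK4/6i alone (log2 fold change 0.05 ± 0.09 SE, adjusted p = 0.684).

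ZNF224, a KRAB repressor first described at the aldolase A gene, rose from 4.27, 4.33 and 4.28 to 8.52, 7.04 and 7.11 CPM (log2 fold change 0.81 ± 0.17 SE, adjusted p = 2.8e-05). ZNF350 (ZBRK1), a BRCA1 partner, went from 12.7, 11.7 and 13.2 to 15.4, 17.6 and 15.4 CPM (log2 fold change 0.36 ± 0.10 SE, adjusted p = 0.00178), a call that was lost with scaling by library totals (adjusted p = 0.411) and without a filter (adjusted p = 0.0508). ZNF675 (TIZ), an inhibitor of TRAF6 signalling, had 7.27, 7.4 and 6.25 CPM in non-treated cells and 11, 10.7 and 11.4 with ATRA, a log2 fold change of 0.67 ± 0.13 (SE, adjusted p = 8.9e-06). With both drugs its level of 9.26, 9.27 and 6.94 CPM did not differ past the threshold (log2 fold change 0.28 ± 0.14 SE, adjusted p = 0.0653), but did without CDK4/6i+ATRA replicate 3 (adjusted p = 0.0135) and with at least 10 counts required in every sample (adjusted p = 0.0399). Among genes of known role outside the 130, the retroelement repressors ZNF91 and ZNF93 had mean counts of 8.5 and 0.5 and ZNF331 had 0. ZNF43 and ZNF85 are listed at 0, with an alternate or patch contig as the first entry.

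Of the abundant members, ZNF787 did not pass the test with both drugs, from 96.1, 93.4 and 84.1 to 92, 90.7 and 91.2 CPM (log2 fold change 0.00 ± 0.05 SE, adjusted p = 0.961), although under library totals the log2 fold change was -0.26 (adjusted p = 1.3e-05). ZNF581 was at 20.4, 21.6 and 22.6 CPM in non-treated cells, 14.5, 14.9 and 13.6 with ATRA, 37.9, 27.7 and 36 with CDK4/6i and 15.8, 19 and 18.6 with CDK4/6i+ATRA. It thus rose with CDK4/6i (log2 fold change 0.66 ± 0.09 SE, adjusted p = 4.3e-09) and fell with ATRA (log2 fold change -0.59 ± 0.10 SE, adjusted p = 5.0e-07). ZNF428 showed a smaller pattern of this kind, with 24.2, 25.5 and 21.6, then 20.2, 15.8 and 18.5, 28.1, 27.3 and 26.4 and 19.2, 18.7 and 18 CPM in the same order of groups.

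By position the 252 genes fell into 21 runs, in which neighbouring starts are within 500 kb, and 6 runs with at least 8 members each held 106 of the 130. The share of genes that were members differed widely. A count of 0 need not mean no expression. Of the 5154 genes of the table that are also placed on alternate or patch contigs, 3559 are at 0. Of the 130 members 0 are so placed, and how such placement is spread over the runs was not tested. In the distal run from ZNF264 to ZNF446 (chr19:57191500-58489533) 36 of 43 genes were members and 1 had no count. In the run from ZNF101 to ZNF254 (chr19:19668153-24129968), near the centromere, 10 of 36 were members and 20 had no count, and in that from ZNF175 to ZNF331 (chr19:51571283-53580269) 11 of 43 and 23. The runs from ZNF565 to ZNF573 (chr19:36182060-37779586), ZNF575 to ZNF180 (chr19:43530835-44500522) and ZNF628 to ZNF835 (chr19:55476617-56671757) held 18 of 27, 18 of 23 and 13 of 17 genes as members.

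In the pericentromeric run most members rose with ATRA alone. Of its 10 members 7 rose and 0 fell in edgeR, with a median log2 fold change of 0.49, and the numbers were 7 and 0 at an unadjusted p under 0.05, in DESeq2 and with scaling by library totals, beside 32.1% higher and 35.5% lower over all tested genes, or 33.9% and 33.1% with library totals. They were ZNF101, ZNF714, ZNF431, ZNF708, ZNF429, ZNF675 and ZNF254, with changes of 0.47, 0.51, 0.28, 0.30, 0.58, 0.67 and 0.58. When CDK4/6i was added to ATRA, 0 of the 10 rose and 5 fell (median -0.32), with 0 higher and 6 lower at an unadjusted p under 0.05, 0 and 5 in DESeq2, and 0 and 7 with library totals. The shares of all tested genes were 36.9% higher and 32.8% lower, or 22.2% and 48.1% with library totals. The run's smallest adjusted p with both drugs was that of ZNF714, which had 14, 14.7 and 13.6 CPM in non-treated cells, 21, 18.8 and 20.4 with ATRA, 10.4, 14.2 and 11.6 with CDK4/6i and 9.07, 8.11 and 5.04 with CDK4/6i+ATRA (log2 fold change -0.94 ± 0.14 SE, adjusted p = 2.5e-08). ZNF714 was thus highest with ATRA and lowest with both drugs. These genes are close paralogues, so reads may be split between them, and no test between runs was made.

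The run from ZNF628 to ZNF835, in which 9 of the 13 members have no KRAB A box, had more falls than rises under ATRA. There 0 members rose and 7 fell in edgeR (median -0.28), with 0 and 7 also at an unadjusted p under 0.05, in DESeq2 and with library totals, beside 32.1% and 35.5% of all tested genes. In CDK4/6i+ATRA against ATRA, where 36.9% of all tested genes rose and 32.8% fell, 8 rose and 0 fell (8 and 0 at an unadjusted p under 0.05, 7 and 0 in DESeq2), but with library totals the numbers were 2 and 3, where the shares of all tested genes were 22.2% and 48.1%. ZNF580, with the smallest adjusted p of the run for both drugs, rose from 8.65, 8.03 and 10.6 to 13.7, 16.3 and 15.6 CPM (log2 fold change 0.74 ± 0.12 SE, adjusted p = 4.8e-07).

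The run from ZNF175 to ZNF331 had 0 rises and 5 falls with ATRA (0 and 5 at an unadjusted p under 0.05 and in DESeq2, 1 and 5 with library totals), beside 32.1% and 35.5% of all tested genes. With CDK4/6i, where 28.3% of all tested genes rose and 27.9% fell, 0 of its 11 members were called in edgeR or DESeq2, with 1 and 0 at an unadjusted p under 0.05. ZNF480 in this run fell with both drugs from 56.7, 60.2 and 56.8 to 25.6, 27.1 and 24.5 CPM (log2 fold change -1.17 ± 0.07 SE, adjusted p = 7.8e-22), against 45.3, 44.3 and 44.1 CPM with ATRA and 59.8, 64.7 and 56.6 with CDK4/6i. The shares of all tested genes with both drugs were 41% higher and 40.7% lower, or 32.9% and 48.3% with library totals. In the run from ZNF565 to ZNF573, 5 members rose and 10 fell with both drugs (median -0.33), and in that from ZNF575 to ZNF180, 7 rose and 3 fell (median 0.31). The distal run had 17 rises and 13 falls (median 0.22), and under library totals 10 and 16. Under library totals the other 2 gave 1 and 10, and 5 and 6.

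**Figure D5:**
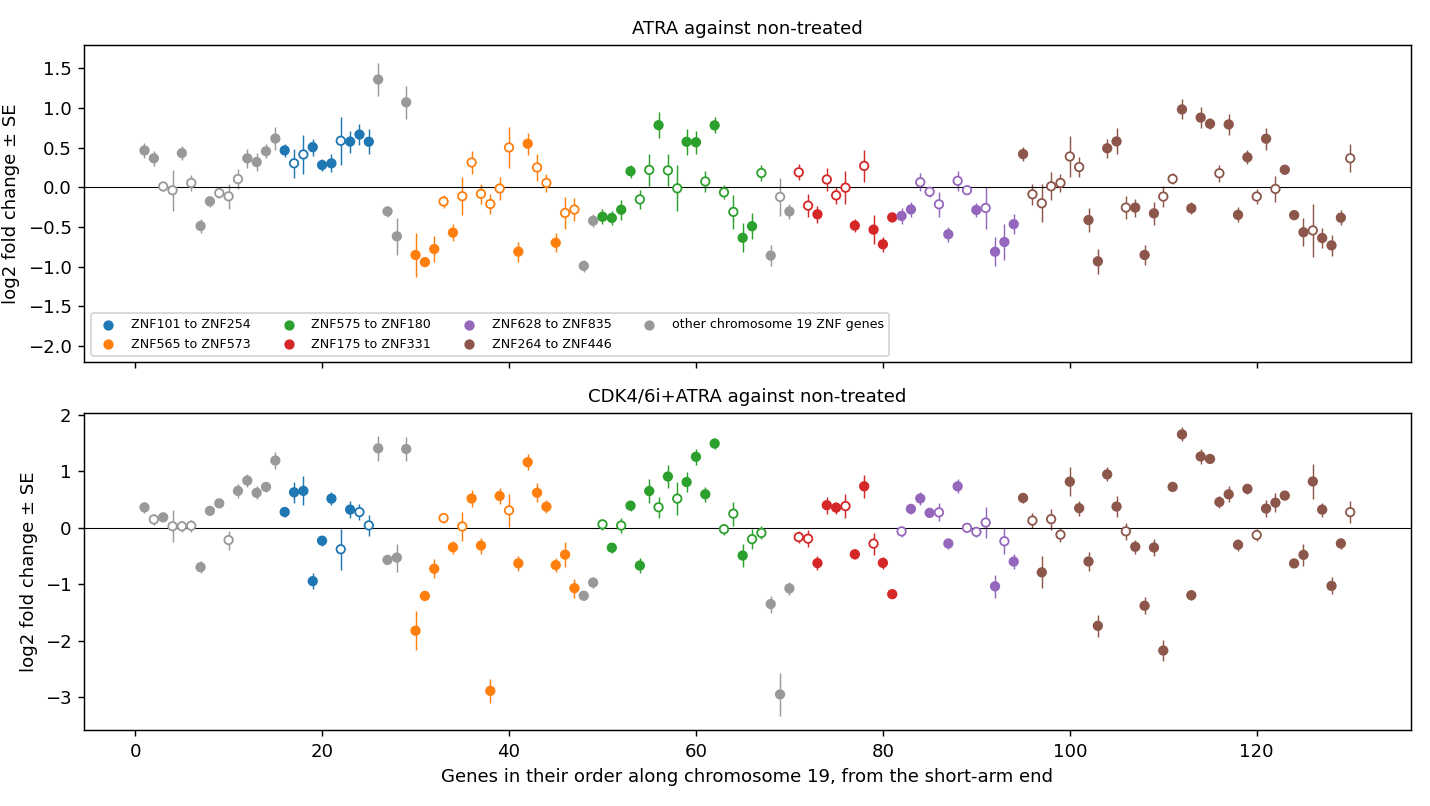
Log2 fold change ± SE (y axis) of the 130 chromosome 19 ZNF genes in their order along the chromosome (x axis, rank), coloured by run, with filled points for an edgeR adjusted p under 0.05. With ATRA (top) the run from ZNF101 to ZNF254 lies above 0, with a median of 0.49, and that from ZNF628 to ZNF835 mostly below, with a median of -0.28.

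Finally, genes of corepressors and heterochromatin were examined, from a list of 27 compiled by hand, of which 26 were tested. The list is wider than the TRIM28, SETDB1, HP1 and NuRD route of KRAB proteins. It also holds genes such as UHRF1, DNMT1, SUV39H1, SUV39H2 and EHMT1, so its counts do not describe that route alone. With CDK4/6i+ATRA 5 rose and 18 fell (median log2 fold change -0.74), and with library totals 3 and 22. DAXX, among the 18, had 343 counts over all libraries and is also placed on an alternate or patch contig. So is EHMT2, the gene not tested, with 37 counts. Over all tested genes 41% rose and 40.7% fell, or 32.9% and 48.3% with library totals. TRIM28, which binds the KRAB domain directly, had 969, 943 and 930 CPM in non-treated cells, 578, 583 and 614 with ATRA, 683, 667 and 657 with CDK4/6i and 243, 250 and 256 with CDK4/6i+ATRA. The 4 groups did not overlap, and the log2 fold change with both drugs was -1.92 ± 0.04 (SE, adjusted p = 9.9e-40). The heterochromatin genes CBX5 and CBX1, which encode HP1 proteins, fell, with log2 fold changes of -1.74 ± 0.06 and -2.08 ± 0.06 (adjusted p = 7.2e-31 and 1.2e-33). The maintenance methylation genes UHRF1 and DNMT1 had log2 fold changes of -4.18 ± 0.06 and -2.51 ± 0.05 (adjusted p = 3.9e-46 and 5.6e-41), and were also low with CDK4/6i alone, at 26.5 to 31.4 and 112 to 125 CPM against 221 to 231 and 357 to 376 CPM in non-treated cells. SETDB1 rose, from 55.8, 56.9 and 59 to 79.9, 75.2 and 74.3 CPM (log2 fold change 0.42 ± 0.05 SE, adjusted p = 7.6e-10), as did TASOR of the HUSH complex (log2 fold change 0.73 ± 0.04 SE, adjusted p = 3.1e-22) and ATRX (log2 fold change 0.49 ± 0.04 SE, adjusted p = 5.0e-14). With library totals the log2 fold changes of SETDB1, TASOR and ATRX were 0.152, 0.467 and 0.222 (adjusted p = 0.0142, 8.79e-13 and 7.12e-05). Of the other HUSH-related genes on the list, PPHLN1 and MORC2 fell (log2 fold change -0.26 and -0.74, adjusted p = 1.2e-06 and 5.0e-16). MPHOSPH8 was not called (log2 fold change 0.04, adjusted p = 0.579), but fell with library totals (-0.229, adjusted p = 0.00176). DAXX, the partner of ATRX, fell (log2 fold change -0.75 ± 0.34 SE, adjusted p = 0.038).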

How the data were processed

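RNA-Seq libraries of HL60 cells were made with a directional kit (NEBNext Ultra II). The authors trimmed reads with Trimmomatic 0.33 and aligned them with STAR 2.7.11a to hg38 under the RefSeq annotation. The deposited values are raw counts per gene, in the layout of featureCounts, while the paper names RSEM, and the strand setting is not given in the sources used here. Groups were taken from the sample titles.

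Here 13318 genes passing filterByExpr were normalized by TMM and tested with the quasi-likelihood F test of edgeR 4.0.16 (R 4.3.3) on the 4 groups, with Benjamini-Hochberg adjustment over all of them, a threshold of 0.05 and the SE taken from the F statistic. CPM were computed from the deposited counts after TMM. The pipeline was tested on simulated data. Adjusted p-values set group differences against the spread between replicates, estimated over all 4 groups with 8 residual degrees of freedom. The 3 replicates per group came from a single cell line and differed by more than sampling noise (chi-square per degree of freedom 1.85 to 6.81). Total counts per library were 12230923 to 18679544.

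The members and lists were chosen with earlier results of these data known. Genes named with values are the 8 largest rises and falls with CDK4/6i+ATRA and the 4 largest with each drug (past the threshold, at least 1 CPM on average, libraries not overlapping), the 4 highest and lowest interactions, the 5 highest levels per length, genes of known role and, per run with at least 8 members, the smallest adjusted p. Corepressor genes and chromosome 19 zinc finger genes named otherwise were lists compiled by hand. Others named were chosen after their values were seen.

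Proteins were translated from GENCODE v44 and searched with a KRAB A box profile (pyhmmer 0.12.3, E-value under 1e-05) and a C2H2 pattern. Alternatives were DESeq2 1.42.0 (its test and its size factors), scaling by library totals, other count filters and member minimums, a replicate block, only the groups compared and leaving out each library. Adding 4 members first listed on another contig and leaving out members that share exon bases were chosen after seeing the data.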

Additional observations from a re-analysis of the deposited data

Results flagged for a closer look

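The effect of ATRA differed between cells with and without CDK4/6i by the edgeR interaction test in 39 of the 130 members, 13 above and 26 below additivity, against 24.5% and 27% of all tested genes. The 4 highest and 4 lowest are given here. The interaction on the log2 scale was -2.24 in ZNF850, -1.78 in ZNF114, -1.45 in ZNF446 and -1.22 in ZNF530, and 1.15 in ZNF584, 0.67 in ZNF784, 0.61 in ZNF576 and 0.54 in ZNF585A. The adjusted p-values were 4.0e-10, 0.00233, 1.6e-06 and 3.3e-05 for the 4 negative values and 3.4e-07, 0.0116, 1.3e-04 and 0.0188 for the 4 positive ones. ZNF114 rests on 2 to 7 counts per CDK4/6i+ATRA library and ZNF850 on 10 to 18. In ZNF446 the first CDK4/6i+ATRA library stood at 6.23 CPM and the other 2 at 3.64 and 3.74 CPM.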

How the results depend on the processing

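The counts of members called higher and lower stayed within 1.5 times their reported values under DESeq2 size factors, at least 10 counts in every sample, the replicate block, only the groups compared and the other member lists, for all 5 comparisons and the interaction. Larger moves came with library totals, without a filter, in the DESeq2 test and without 1 library. In the CDK4/6i+ATRA comparisons library totals gave 27 members higher against the non-treated group, 14 against CDK4/6i, 11 (and 53 lower) against ATRA and 1 (and 53 lower) for the interaction, with medians of -0.186, -0.318, -0.198 and -0.341. Without a filter on low counts 27 members were higher against ATRA and 4 for the interaction, and the medians were -0.0283 against non-treated cells, -0.141 against CDK4/6i, 0.016 against ATRA and -0.111 for the interaction. The DESeq2 test gave 7 higher interactions. The median for ATRA against non-treated cells was -0.0261 under DESeq2 size factors, -0.0173 under library totals, -0.0183 with at least 10 counts in every sample, -0.0272 in the DESeq2 test, -0.00804 with only the groups compared, -0.036 at a mean count of at least 10 and -0.0353 with the 4 genes first listed on another contig. The median of CDK4/6i+ATRA over the non-treated group was 0.146 with at least 10 counts in every sample and 0.13 at a mean count of at least 10, and that against ATRA 0.0407 with only the groups compared. The cause was not tested. Members on no other contig were the same 130 genes.

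Leaving out each library in turn gave medians of -0.0899 to -0.0343 for ATRA, 0.0661 to 0.137 for CDK4/6i+ATRA over the non-treated group, 0.102 to 0.165 against ATRA, -0.057 to -0.0191 against CDK4/6i, 0.0696 to 0.129 for CDK4/6i and -0.0806 to 0.00967 for the interaction, whose median changed sign, and 8 to 13 higher interactions, the 8 without non-treated replicate 2. The same-numbered samples of different groups were not paired in their deviations (correlations of -0.0702 to 0.0328 over 18 pairs), and the replicate block gave 50 higher and 43 lower members with CDK4/6i+ATRA and 11 and 25 interactions. Of 1146 values recomputed for the named members 1097 kept direction and call, 33 lost and 3 gained the call, and 13 changed sign, all in genes whose change with CDK4/6i+ATRA was not called. These were ZNF446 (-0.0113 to 0.419 over the libraries left out), ZNF576 (-0.203 under library totals, -0.0448 without a filter, -0.00111 to 0.0996 over the libraries left out) and ZNF787 (-0.262, -0.107 and -0.0624 to 0.0342). The rise of ZNF429 with CDK4/6i+ATRA, at an adjusted p of 0.0494, lost its call in 14 alternatives. Depth limits the members with few counts, such as ZNF114 with 2 to 7 per CDK4/6i+ATRA library.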

Other observations

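Chromosome 19 also holds zinc finger genes with other names. Of a list of 16 such genes 5 were tested, and with CDK4/6i+ATRA 2 rose and 1 fell against non-treated cells, where 41% and 40.7% of all tested genes did. ZBTB7A, a BTB domain transcription factor of blood cell development, had 108, 105 and 109 CPM in non-treated cells, 189, 177 and 174 with ATRA, 118, 114 and 118 with CDK4/6i and 566, 582 and 572 with CDK4/6i+ATRA. Its log2 fold change with both drugs was 2.41 ± 0.04 (SE, adjusted p = 9.9e-45), beyond that of every member called higher. ZBTB45 rose (log2 fold change 0.23 ± 0.10 SE, adjusted p = 0.0273), a direction that turned with scaling by library totals (log2 fold change -0.0351, adjusted p = 0.75), and ZSCAN5A fell (log2 fold change -0.57 ± 0.19 SE, adjusted p = 0.00546). ZFP14 (log2 fold change -0.01 ± 0.22 SE, adjusted p = 0.976) and ZSCAN22 (log2 fold change 0.01 ± 0.18 SE, adjusted p = 0.952) did not pass the test.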
